A study of Drosophila melanogaster with 8 samples.

Results

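Respiratory complex I, the NADH dehydrogenase of mitochondria, was examined at the transcript level in macrophages of Drosophila melanogaster embryos. Its genes were taken as all rows whose gene name begins with ND-, which gave 40 of the 17494 genes in the tables. Macrophages (hemocytes) labelled with mCherry were sorted by flow cytometry from embryos collected at stage 11 and 29°C, and polyA RNA was sequenced in 4 wild type (WT) and 4 CG9005 mutant libraries. The sample titles give the groups, because the genotype field holds the same mCherry tag for both. The stage field of the labels counts up from 11 to 18 over the 8 libraries, against a collection at stage 11 in the protocol. Nothing says that replicates came from separate collections, so p-values measure the spread between these libraries, which may be technical. The mutant allele and the promoter that drives mCherry are not stated in the labels. The question named by the series is whether a genetic program raises mitochondrial function while macrophages invade tissue, with CG9005 as the mutated gene.

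Complex I takes electrons from NADH, hands them through a flavin and a chain of iron-sulphur clusters to ubiquinone, and pumps protons across the inner mitochondrial membrane. It has a matrix arm, made of an NADH-binding and a quinone-binding module, and a membrane arm with a proximal and a distal part. A conserved core shared with bacteria does the chemistry, and accessory subunits surround and stabilise it. Nuclear and mitochondrial genes both encode its subunits, so the ND- genes are its nuclear portion. Roles below follow the human orthologues that the RefSeq gene table lists as synonyms of all 34 genes that are not paralogues, and the assignment to modules is known mainly from mammals.

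Of the 40 genes, 34 are named as subunits and 6 as paralogues, with names ending in L or L and a digit. A level of at least 1 TPM (transcript abundance scaled by gene length and library depth) in at least 4 libraries was required for testing, and 32 genes passed. Between 15782570 and 18942786 reads per library could be recovered from the TPM values, of which 55959 to 82949 belonged to the ND- genes. Tested members had 31 to 11921 reads per library. Counting alone would give a median coefficient of variation of 2.33%, while the 4 WT libraries of a gene varied by a median of 15.1%, so the spread between libraries limits precision more than depth does. All 37 genes of the mitochondrial genome, including the 7 that encode complex I subunits, were listed at 0 in every library, so the mitochondrially encoded membrane core was not analysed here. CG9005 itself was at 87.8 ± 18.4 TPM in WT against 89.1 ± 12.2 TPM in the mutant (SD, n = 4 each), so its level does not check the labels.

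The sorted cells carried macrophage transcripts. NimC4, a receptor for apoptotic cells, ranged from 3603 to 7492 TPM over the 8 libraries, crq from 314 to 584 and Pxn from 80.5 to 158. The marker srp was lower, from 15.0 to 38.6 TPM, and Hml, a marker of later hemocytes, did not exceed 0.12 TPM. Of 12 macrophage markers, 11 were tested, and their summed level was 5500 to 9139 TPM in WT against 7134 to 8804 in the mutant, mostly NimC4. Among them Sr-CI, which encodes a scavenger receptor, rose by 0.91 on the log2 scale (limma adjusted p = 0.000818), with 394 ± 20.7 TPM in WT libraries and 739 ± 29.1 TPM in mutant ones. Ppn was at 323 ± 29.4 and 251 ± 36.9 TPM (limma adjusted p = 0.285) and Glt at 38.4 ± 21.1 and 105 ± 80.6 TPM (limma adjusted p = 0.348). The crystal cell list (lz, PPO1 and PPO2) summed to 444 to 822 TPM in WT against 404 to 536 in the mutant. Within it PPO1, a prophenoloxidase of crystal cells, fell by 1.88 on the log2 scale (limma adjusted p = 0.00278), with 61.8 ± 9.85 TPM in WT libraries and 16.8 ± 6.73 TPM in mutant ones. Neuronal markers (elav, nSyb and Syt1) summed to 43.3 to 73.4 and 50.1 to 64.6 TPM, and muscle markers (Mhc, Mef2 and Act57B) to 15.1 to 22.04 and 21.1 to 41.7 TPM. The neuronal sum was mostly elav, at 42.7 to 69.4 TPM and above srp in every library, while nSyb did not exceed 2.97 TPM and Syt1 1.92 TPM. Gut markers (fkh and GATAe) summed to 8.19 to 17.0 and 5.20 to 13.1 TPM, and epidermal markers (grh and shg) to 32.4 to 90.9 and 30.3 to 55.9 TPM. The glial marker repo stayed at or below 1.66 TPM, the 3 germline markers summed to at most 1.97 TPM, and both fat body markers (Fbp1 and Lsp2) were at 0. Whether fat body at this stage would express them was not examined, so their 0 does not show that such cells were absent. The part of these differences in the results below was not tested. In bulk libraries, fewer cells of a type and less RNA per cell cannot be told apart.

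Complex I transcripts were abundant in WT macrophages. The 32 tested genes had a median WT mean of 148 TPM against 13.1 TPM over all 7827 tested genes, which put the median member at percentile 91.8 of WT levels. All but ND-AGGG (31 of 32) lay above the median of all tested genes. The levels of the subunits were far from equal, although most accessory and core subunits occur in equal numbers in the assembled complex. The 10th and 90th percentiles of the WT means were 76.8 and 301 TPM, a ratio of 3.92, and 25 of the 32 lay within 2-fold of the median. The same ratio was 3.95 in the mutant. On the log2(TPM + 1) scale, the SD between subunits was 1.22 in WT, or 0.77 without ND-MLRQ and ND-AGGG, against a pooled SD of 0.23 between libraries of a group.

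**Figure D1:**
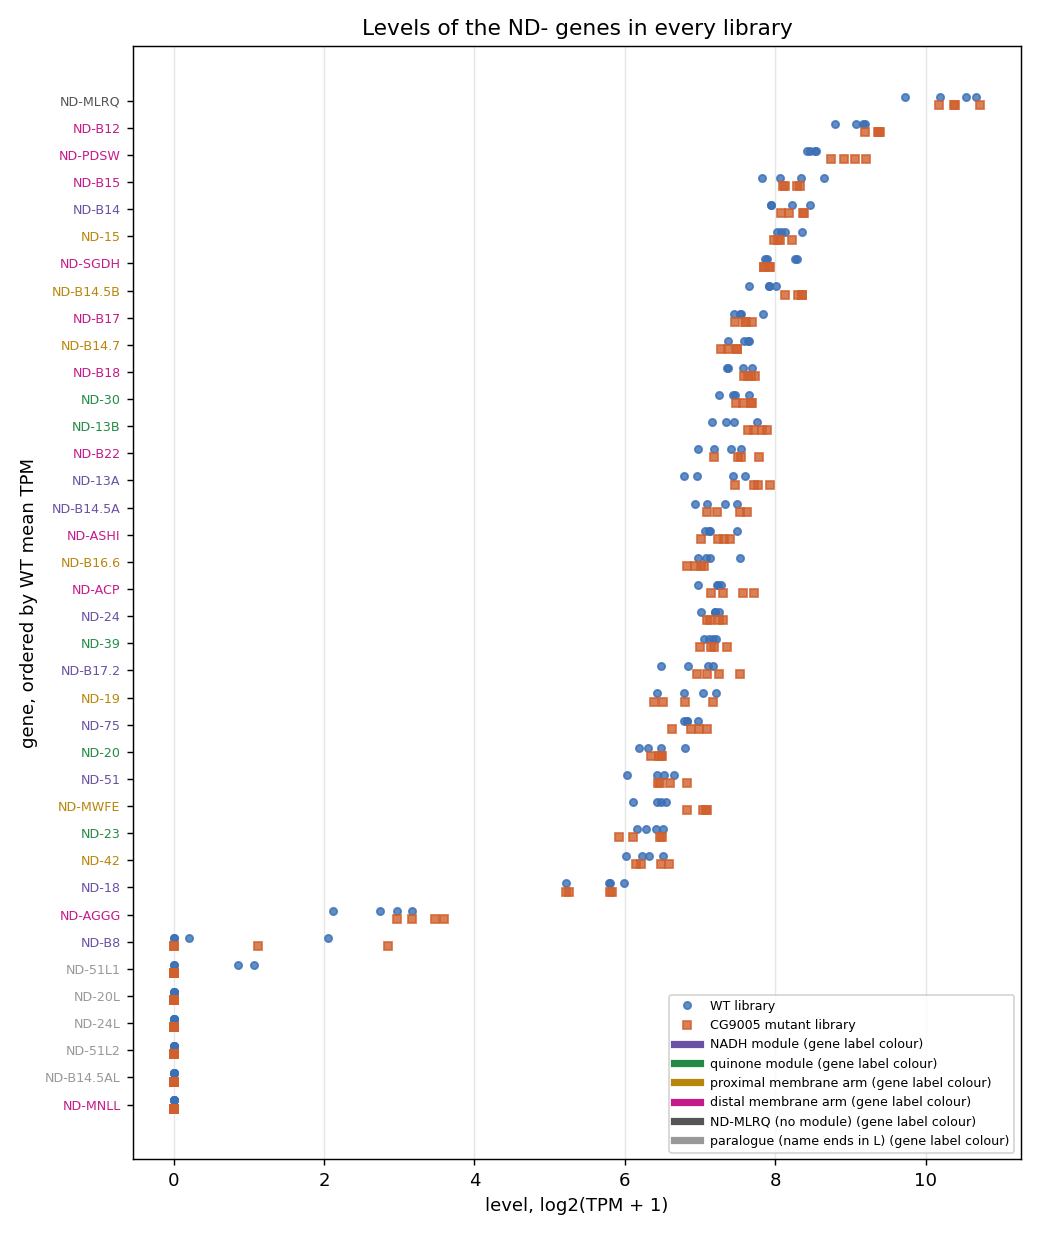
Level of 38 of the 40 ND- genes on the log2(TPM + 1) scale, with 1 point per library (blue circles, WT; orange squares, CG9005 mutant) and genes ordered from the highest to the lowest WT mean. Most subunits form a continuous band around the median WT mean of 148 TPM, ND-MLRQ and ND-B12 stand above it, and ND-AGGG, ND-B8 and the paralogues stand below. ND-MNLL is also plotted at the bottom, but it shares every exon base with another gene, so its level cannot be read.

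ND-MLRQ was the highest member. Its orthologue NDUFA4 was first purified with complex I and is now generally counted with cytochrome c oxidase (complex IV) in mammals. In WT it reached 1169, 1629, 844 and 1490 TPM, and in the mutant 1690, 1338, 1329 and 1160 TPM. WT replicate 3 was the lowest of the 8, and the groups overlapped. Its WT mean was 8.67 times that of the median subunit.

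ND-B12, an accessory subunit of the distal membrane arm, came next. In WT it reached 444, 584, 574 and 539 TPM, and in the mutant 583, 656, 670 and 662 TPM. WT replicate 1 was the lowest, and mutant replicate 1 lay just under the highest WT library, so the groups overlapped. ND-PDSW, also of the distal arm, followed with a WT mean of 358 ± 12.8 TPM (SD, n = 4). ND-B15, again of the distal arm, came after it and had 225, 265, 323 and 400 TPM in WT against 322, 312, 274 and 280 TPM in the mutant. The mutant libraries of ND-B15 lay inside the WT range.

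The steps from ND-MLRQ to ND-B12, from ND-B12 to ND-PDSW and, at the bottom, from ND-18 to ND-AGGG were the only 3 of 31 neighbouring pairs in the WT order whose ranges did not overlap. For the other 28 pairs the order of neighbours was within the spread of the libraries. The order as a whole was stable between libraries and genotypes. Over the 32 genes, Spearman correlations of levels were 0.916 to 0.968 between libraries of a group, 0.880 to 0.954 between groups and 0.962 between the group means. These are correlations across genes, which are not independent replicates and share gene length and sorted cells. In the mutant 13 genes kept their WT rank, and no gene moved by more than 6 ranks.

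Of the 7 nuclear core subunits, 6 lay below the median member and 1, ND-30, above it. Their WT means had a median of 87.2 TPM, against a median of 153 TPM for the 24 tested accessory subunits. Members with a longer exon length had lower levels (Spearman −0.46 over the 32 genes, and −0.10 over 7761 tested genes with a known length). Exon length here merges all transcripts of a gene, and TPM is already scaled by length. The median exon length was 857.5 bases for the tested members and 1954 bases for all tested genes. Among the tested members it ranged from 477 bases (ND-B15) to 2634 bases (ND-75).

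ND-75 carries several of the iron-sulphur clusters of the NADH module (human NDUFS1). It reached 125, 109, 113 and 113 TPM in the WT libraries and, in the mutant ones, 117, 125, 97.8 and 136 TPM. ND-51, which binds NADH and the flavin (human NDUFV1), held 64.4, 91.1, 85.1 and 99.4 TPM in WT against 87.8, 113, 96.3 and 86.2 TPM in the mutant. ND-24, its partner with an iron-sulphur cluster (human NDUFV2), was among the steadiest members. It had 129, 145, 146 and 152 TPM in WT against 157, 140, 136 and 151 TPM in the mutant. The groups overlapped for all 3.

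In the quinone module, ND-30 (human NDUFS3) was the highest core subunit, with 151, 201, 173 and 175 TPM in WT against 204, 190, 206 and 178 TPM in the mutant. ND-20 (human NDUFS7), which holds the last iron-sulphur cluster before quinone, had 78.0, 88.3, 72.1 and 110.3 TPM in WT against 88.3, 80.7, 87.0 and 89.2 TPM in the mutant. ND-23 (human NDUFS8) had 84.2, 76.7, 70.8 and 89.5 TPM in WT against 68.3, 59.9, 89.5 and 87.3 TPM in the mutant. Here too the groups overlapped. The log2 fold changes of the 7 core subunits, mutant minus WT, had a median of 0.04, with 6 above 0 and 1 below (ND-23, at −0.09).

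By module, the median WT mean was 132 TPM for the 8 tested genes of the NADH module, 114 TPM for the 6 of the quinone module, 145 TPM for the 7 of the proximal membrane arm and 187 TPM for the 10 tested genes of the distal arm. The ranges within modules overlapped widely, from 51.9 to 285 TPM in the NADH module and from 5.97 to 536 TPM in the distal arm. NP15.6, which RefSeq lists as NDUFB11 of the distal arm, is outside the naming rule and had 325 ± 45.7 TPM in WT against 329 ± 52.8 TPM in the mutant.

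A few genes named as subunits had little or no signal. ND-MNLL (human NDUFB1, distal arm, chromosome X, 7893053 to 7893798, minus strand, BDGP6) was listed at 0 in all 8 libraries. In the annotation every one of its 720 exon bases is also an exon base of CG45089, a gene on the same strand with identical limits that RefSeq lists as an upstream reading frame of the same transcript. CG45089 was at 0 in all libraries as well. Of 315 protein-coding genes with no exon base free of another gene on their strand, 311 (98.7%) were at 0 in every library, against 17.17% of 13521 with such bases. Whether the ND-MNLL transcript was present cannot be read from these tables. Of 73 protein-coding genes covered completely by genes on the opposite strand only, 26.0% were at 0 in every library.

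ND-B8 (human NDUFA2, NADH module) has 389 of its 460 exon bases to itself and was still close to 0. It held 0.149, 0, 0 and 3.16 TPM in WT against 6.24, 1.18, 0 and 0 TPM in the mutant, on at most 37 reads, and was not tested. ND-AGGG (human NDUFB2, distal arm) shares no exon base with another gene. It held 6.83, 7.99, 5.69 and 3.36 TPM in WT against 11.1, 10.1, 8.03 and 6.82 TPM in the mutant, on 31 to 107 reads per library, and the groups overlapped. Its paralogue CG40472, which RefSeq also lists under NDUFB2, did not exceed 3.74 TPM. ND-18 (human NDUFS4, NADH module), the lowest of the main band, held 36.1, 54.8, 54.2 and 62.6 TPM in WT against 37.2, 36.2, 54.8 and 55.6 TPM in the mutant. Reads shared with near-identical copies were not analysed here, so the values of ND-AGGG, CG40472 and the paralogues carry that uncertainty.

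The paralogues with names ending in L were nearly silent. Of the 6, 5 had no read in any library, among them ND-20L, ND-24L, ND-51L2 and ND-B14.5AL, which allows at most 0.365 TPM in a library, taking 3 reads as the limit for the shortest of them and the library least favourable to it. That limit covers counting error only. Against the same limit in each library, ND-20 was at least 204-fold, ND-B14.5A at least 378-fold, and ND-24 at least 446-fold higher than the paralogue named after it, and ND-51 was at least 482-fold higher than ND-51L2. ND-B14.5A (human NDUFA7) itself held 135, 161, 179 and 121 TPM in WT against 136, 184, 148 and 196 TPM in the mutant. ND-51L1 was the exception, with a lowest ratio of ND-51 to it of 59.1 and with 1.09 TPM on 34 reads in WT replicate 1 and 0.817 TPM in WT replicate 3, and no read in the other 6 libraries. The 4 mutant libraries were all at 0 and so were 2 of the WT libraries, so the groups overlapped.

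No complex I gene passed the test for a difference between WT and CG9005 mutant macrophages. At an adjusted p under 0.05 in limma (Benjamini and Hochberg over all 7827 tested genes), 0 of the 32 tested members were called, against 1.67% of all tested genes. At an unadjusted p under 0.05, 6 members were higher in the mutant and 0 lower, where the background was 5.46% higher and 6.68% lower. With limma's voom on the recovered reads 0 of 32 members were called (background 1.13%). The authors' deposited table lists 34 of the members and calls 0 of them (background 0.579%). The lowest unadjusted p in the authors' deposited table was 0.137, for the paralogue ND-51L1, with a log2 fold change of −2.82. In that authors' deposited table the log2 fold changes of ND-MWFE and ND-PDSW were 0.69 and 0.56, with unadjusted p of 0.292 and 0.563. In limma they were 0.62 and 0.49, with unadjusted p of 0.00129 and 0.00167. At similar fold changes the authors' p-values were thus far larger, so they cannot be compared directly with those of limma. The 0 calls in the authors' table are therefore not a like-for-like check of the limma result.

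The values leaned upward in the mutant. Of the 32 members, 24 had a log2 fold change above 0 and 8 below, where 41.7% of all tested genes were above 0. The median log2 fold change was 0.12, against −0.06 over all tested genes, with a range of −0.22 to 0.62 and a median standard error of 0.15 per gene. Without WT replicate 3 the median was 0.04 and without WT replicate 2 it was 0.19. The list was chosen with results of these data known, so no p is given for it. The summed level of the 40 genes was 5840, 7170, 5959 and 7152 TPM in WT against 7387, 7302, 7197 and 6905 TPM in the mutant, a ratio of means of 1.10. WT replicates 1 and 3 were low and replicates 2 and 4 lay among the mutant libraries, so the sums overlapped. Without ND-MLRQ the sums were 4671 to 5662 TPM in WT against 5696 to 5965 TPM in the mutant, and did not overlap. That gap was narrow, between WT replicate 4 and mutant replicate 1. ND-PDSW alone differed by more between these libraries, at 353 TPM in WT replicate 4 and 427 TPM in mutant replicate 1. The separation was not tested.

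**Figure D2:**
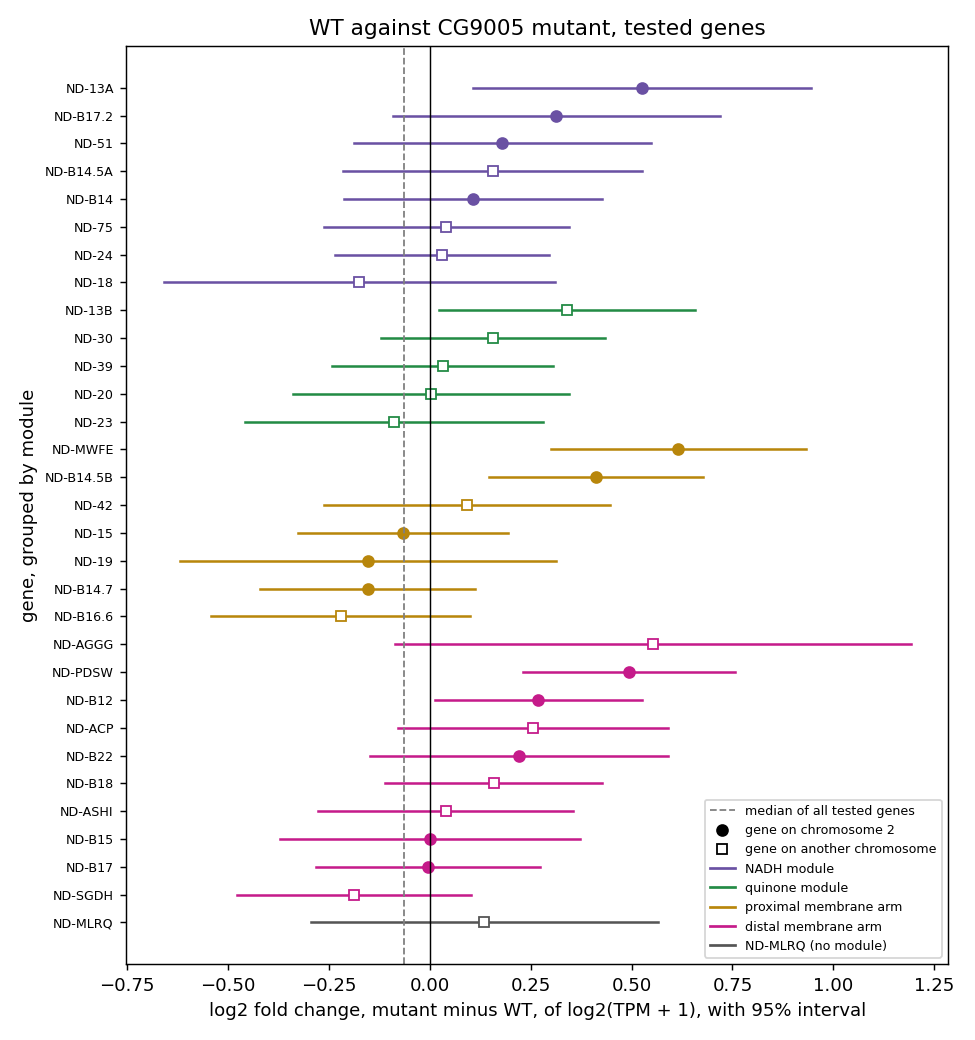
Log2 fold change (mutant minus WT, on log2(TPM + 1)) with its 95% interval for 31 of the 32 tested genes, grouped by module, with filled circles for genes on chromosome 2 and open squares for other chromosomes. The estimates run from −0.22 (ND-B16.6) to 0.62 (ND-MWFE), and the dashed line marks the median of −0.06 over all tested genes.

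Separate ranges in the groups were seen for 3 of the 32 tested members, all higher in the mutant, where 3.25% of all tested genes were higher without overlap. For 0 of 32 members the mutant was lower without overlap, where 4.52% of all tested genes were. The 3 were ND-MWFE, ND-PDSW and ND-B14.5B. ND-MWFE (human NDUFA1, proximal membrane arm, chromosome arm 2R, 13158666 to 13160190, plus strand, BDGP6) is a small membrane subunit needed for assembly of the complex in mammals. It reached 67.8, 85.2, 88.2 and 92.7 TPM in the WT libraries and, in the mutant ones, 130.2, 135, 135 and 112 TPM. The means were 83.5 ± 10.9 and 128 ± 10.8 TPM (SD, n = 4 each), and the log2 fold change was 0.62 (SE 0.14, 95% interval 0.30 to 0.93, limma adjusted p = 0.0658). ND-MWFE shares 35.0% of its exon bases with Nrk on its own strand or TppII on the other. Nrk had 3.48 TPM in WT against 4.43 TPM in the mutant, and TppII had 26.7 and 23.3 TPM.

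ND-PDSW (human NDUFB10, chromosome arm 2L, 3466157 to 3467334, plus strand, BDGP6) is an accessory subunit of the distal membrane arm and shares no exon base with another gene. Its WT libraries lay close together at 343, 371, 367 and 353 TPM, while the mutant libraries held 427, 483, 588 and 534 TPM. The means were 358 ± 12.8 and 508 ± 69.1 TPM, and the log2 fold change was 0.49 (SE 0.12, 95% interval 0.23 to 0.76, limma adjusted p = 0.0737). Both genes were higher at an adjusted p under 0.10 in limma, as were 1.47% of all tested genes. Both passed 0.05 with quantile normalisation (limma adjusted p = 0.0250 for ND-MWFE and 0.0466 for ND-PDSW) and with median centring (0.0258 and 0.0397), where 1.66% and 1.74% of all genes were called. ND-PDSW alone passed with array weights, where 2.27% of all genes were called.

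ND-B14.5B (human NDUFC2, chromosome arm 2L, 3144953 to 3145848, minus strand, BDGP6), a proximal membrane arm subunit, held 200.2, 257, 241 and 241 TPM in WT against 326, 315, 279 and 328 TPM in the mutant. The lowest mutant library was above the highest WT library (log2 fold change 0.41, SE 0.12, limma adjusted p = 0.157). ND-13A, a zinc-binding subunit of the NADH module (human NDUFS6), held 123, 193, 109.9 and 172 TPM in WT against 243, 210.2, 217 and 175 TPM in the mutant (0.53, SE 0.19, limma adjusted p = 0.291). WT replicate 2 lay above mutant replicate 4, so its groups overlapped. ND-13B (human NDUFA5, quinone module) held 142, 174, 162 and 215 TPM in WT against 236, 226, 199 and 209 TPM in the mutant (0.34, SE 0.14, limma adjusted p = 0.370). Its WT replicate 4 lay inside the mutant range. ND-B12 was the sixth member with an unadjusted p under 0.05 (log2 fold change 0.27, limma adjusted p = 0.380).

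**Figure D3:**
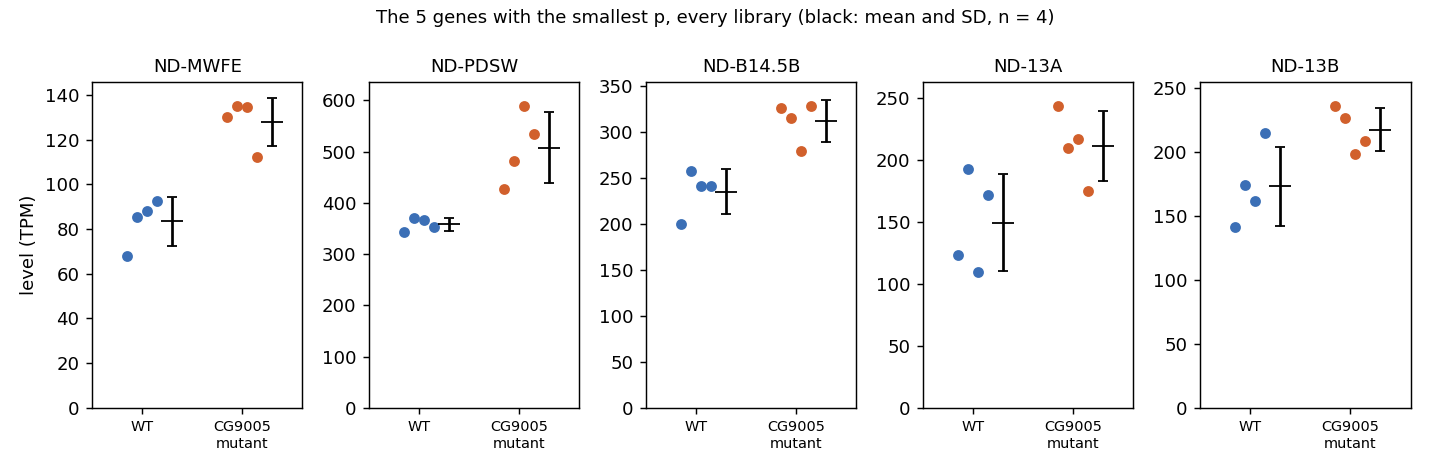
Level in TPM of the 5 members with the smallest p in every WT (blue) and CG9005 mutant (orange) library, with the mean and SD of each group in black (n = 4), on axes that start at 0. For ND-MWFE, ND-PDSW and ND-B14.5B the mutant points lie wholly above the WT points, while the groups overlap for ND-13A and ND-13B.

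The proportions between subunits were compared within each library, which does not depend on how libraries are scaled to each other. ND-MWFE stood at 0.489, 0.570, 0.635 and 0.554 times the median subunit in WT and at 0.862, 0.732, 0.838 and 0.706 times in the mutant, without overlap. ND-PDSW stood at 2.43 ± 0.226 times the median subunit in WT and 3.12 ± 0.478 in the mutant, and ND-B14.5B at 1.59 ± 0.164 and 1.92 ± 0.229 (SD, n = 4 each). For both, the highest WT library lay just above the lowest mutant library. These genes were picked for their difference, so the ratios are a description.

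The upward lean was uneven over the modules. In the proximal membrane arm, which holds ND-MWFE and ND-B14.5B, 3 of 7 genes were above 0 and the median log2 fold change was −0.07. There ND-B16.6 (human NDUFA13) had the lowest estimate of all members, from 145 ± 26.0 to 123 ± 8.55 TPM (−0.22, SE 0.15, limma adjusted p = 0.616). The distal arm had 8 of 10 tested genes above 0 (median 0.19), the NADH module 7 of 8 (0.13) and the quinone module 5 of 6 (0.09). The 24 accessory subunits among the 32 tested members had 17 above 0 and a median of 0.13. All 6 members at an unadjusted p under 0.05 in limma were accessory subunits, as are most tested members. The summed level of the 26 accessory subunits was 3972 to 4846 TPM in WT against 4881 to 5199 TPM in the mutant, and that of the 7 core subunits 695 to 816 and 765 to 815 TPM. The accessory ranges were only narrowly apart, and their sums include ND-PDSW. Whether the modules, or core and accessory subunits, differ in their response was not tested.

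Of the 32 tested members, 14 lie on chromosome 2, as CG9005 does, and 5 of those 14 were higher at an unadjusted p under 0.05 where the background on that chromosome was 7.09%. Of the 18 on chromosomes 3, 4 and X, 1 was higher, ND-13B, where the background was 4.49%. The median log2 fold change was 0.20 on chromosome 2 and 0.07 elsewhere, against −0.07 and −0.06 over all tested genes there. Values above 0 were found for 10 of 14 members on chromosome 2 and 14 of 18 elsewhere. The part of chromosome 2 in the result was not tested.

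**Figure D4:**
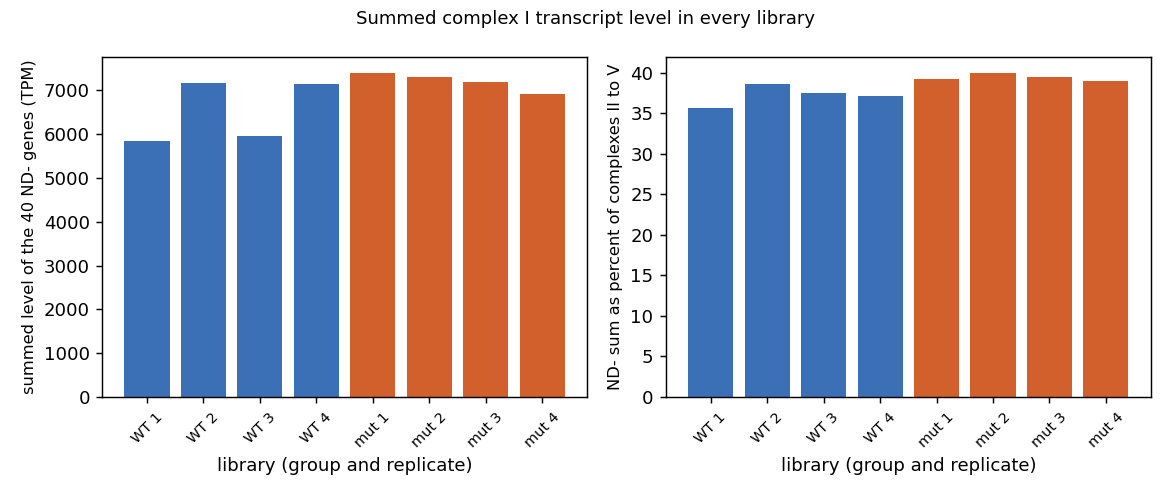
Summed TPM of the 40 ND- genes (left) and that sum as a percentage of the summed TPM of 35 genes of complexes II to V (right) in each WT (blue) and CG9005 mutant (orange) library, on axes that start at 0. The sums overlap, from 5840 to 7170 TPM in WT against from 6905 to 7387 TPM in the mutant, while the percentages run from 35.6% to 38.6% and from 39.0% to 39.9%, a separation that is lost without ND-MLRQ (28.5% to 32.2% in WT and 30.3% to 32.6% in the mutant).

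The other nuclear genes of oxidative phosphorylation serve as a comparison. The 35 genes of complexes II to V, whose complexes follow or bypass complex I in the chain, had a median WT mean of 330.0 TPM and no call. Their median log2 fold change was 0.09, with 26 above 0 and 9 below. Their summed level was 15883 to 19241 TPM in WT against 17713 to 18825 TPM in the mutant. The ND- sum was 35.6%, 38.6%, 37.5% and 37.2% of theirs in WT and 39.2%, 39.9%, 39.5% and 39.0% in the mutant, so the ranges were apart. That separation rests on ND-MLRQ: without it the values were 28.5%, 29.8%, 32.2% and 29.4% in WT against 30.3%, 32.6%, 32.2% and 32.4% in the mutant, and WT replicate 3 lay inside the mutant range. With ND-MLRQ counted among complexes II to V, WT replicate 3 was the highest of the 8 libraries, at 30.6%. The 72 tested mitochondrial ribosomal protein genes had a median log2 fold change of 0.02 and no call.

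Genes that build complex I were far less abundant than its subunits. Of 10 listed assembly factors 9 were found in the tables, all were tested and 0 were called in limma (0 also at an unadjusted p under 0.05). Their median WT mean was 14.2 TPM and their median log2 fold change 0.02. CIA30, the orthologue of the human assembly factor NDUFAF1, was the highest, at 24.8, 31.6, 27.5 and 31.1 TPM in WT against 33.7, 27.6, 28.2 and 27.2 TPM in the mutant. Sicily (NDUFAF6), whose loss in flies lowers complex I, held 16.4 ± 2.33 TPM in WT against 15.3 ± 5.62 TPM in the mutant, and mutant replicate 1 was lowest at 7.22 TPM. CG3270, the lowest, had 2.33 ± 1.77 and 0.979 ± 0.238 TPM.

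Of 6 genes for assembling iron-sulphur clusters, 0 were called in limma and 0 had an unadjusted p under 0.05, and 4 were above 0 (median log2 fold change 0.17). IscU, the scaffold on which clusters form, was at 262 ± 60.0 TPM in WT against 284 ± 38.0 TPM in the mutant. The frataxin gene fh was at 10.2 ± 0.934 and 15.8 ± 6.38 TPM (limma adjusted p = 0.533), with mutant replicate 1 below all WT libraries. Of 5 regulators of nuclear mitochondrial genes (srl, ewg, Ets97D, TFAM and Dref) 0 were called in limma and 0 had an unadjusted p under 0.05. Srl, the fly PGC-1 homologue, was at 8.67 ± 1.97 and 9.83 ± 1.99 TPM, and Ets97D, the NRF-2 alpha homologue, at 12.5 ± 1.56 and 9.73 ± 4.08 TPM.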

How the data were processed

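RNA-seq of mCherry-labelled macrophages gave 8 libraries. The tools named, per the submitters' processing notes, are HTSeq 0.5.4p3 and STAR 2.5.1b on the BDGP6 build, then R 3.4.4 with limma and edgeR. A strand setting for the counting is not stated there. The authors deposited TPM per gene and library, and a table of their own comparison with log2 fold changes and p-values, of which 1 copy was used.

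Levels are the deposited TPM. Differences were tested with R 4.3.3 and limma 3.58.1, using a variance trend, on log2(TPM + 1) of genes that reached 1 TPM in 4 or more libraries, adjusted by Benjamini and Hochberg over all tested genes and called under 0.05. A fold change on this scale understates the change of low genes. TPM times the union exon length of the Ensembl annotation gave whole reads, within 0.05 reads, for 98.8% to 99.0% of values, and voom was run on those reads. The fit was tested on simulated data. The rule for named genes took the 7 core subunits, the 4 highest and 4 lowest subunits, every paralogue with its parent, and the 5 smallest p. Of these, 1 core subunit and its paralogue are not reported here, though sums, counts and medians include them. The members and lists were chosen with earlier results of these data known. Studies place some border subunits in different modules. Alternatives covered left-out libraries, replicate block, stage field, scaling, filter, pseudocount, variance prior, weights and threshold. Intervals and limits from reads cover counting error only.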

Additional observations from a re-analysis of the deposited data

Results flagged for a closer look

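In 2 of 66 groups of 4 libraries examined, 1 library stood apart from the other 3 by Dixon's criterion, which chance gives in about 1 in 20 groups. ND-ASHI, a distal arm subunit (human NDUFB8), held 134, 138 and 139 TPM in WT replicates 1 to 3 and 178 TPM in WT replicate 4 (gap over range 0.879). ND-B12 held 656, 670 and 662 TPM in mutant replicates 2 to 4 and 583 TPM in mutant replicate 1 (gap over range 0.844).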

How the results depend on the processing

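The count of complex I genes called in limma was 0 with each library left out in turn (0 to 0), against 2 with quantile normalisation, 2 with median centring, 1 with array weights (ND-PDSW, limma adjusted p = 0.0445), 2 at an adjusted p under 0.10 and 6 at an unadjusted p under 0.05. The unadjusted threshold, the sums and percentages without ND-MLRQ and the level per unshared exon base were chosen after seeing the data. The median log2 fold change ran from 0.04 to 0.19 with each library left out, and from 0.04 to 0.19 over all 19 alternatives, with 17 to 26 members above 0. The ratio of summed TPM ran from 1.06 to 1.14 with each library left out. The coefficient of variation between levels was 132% in WT over all 40 genes, 126% to 139% with a library left out and 115.02% without the paralogues. With each library left out, the limma adjusted p was 0.0813 to 0.214 for ND-MWFE and 0.0580 to 0.232 for ND-PDSW. The stage field counts up in the order of the samples, while the protocol gives stage 11 for every library. It was lower in every WT library than in any mutant library, so a fit that includes it cannot separate the field from genotype. With this field as a covariate, ND-MWFE was at 0.47 (limma adjusted p = 0.644) and ND-PDSW at 0.22 (0.774), and the median at 0.04. Whether the field records a stage or only the sample order is not stated, so this fit is no test of stage. The part of stage in the differences was not tested. The other members changed sign in 35 of 512 combinations of gene and setting, and 0 were called.

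Same-numbered replicates did not deviate together (correlations of 0.08, −0.15, −0.04 and −0.04), and in 1 of 4 numbers the libraries correlated best with their own. With the replicate block 0 members were called in limma. In this balanced design the block leaves fold changes, and so the median of 0.12, the same by construction.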
